A study of Mus musculus with 6 samples.

Results

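The genes described are 8 that encode enzymes of prostanoid and leukotriene synthesis, Ptgs1, Ptgs2, Ptges, Tbxas1, Alox5, Alox5ap, Lta4h and Ltc4s. They were found as the array probes whose RefSeq accession names one of these genes, which gave 10 probes of the 56605 on the array. By symbol or, failing that, by probe, the array held 46522 genes. The RNA came from C5aR+ LysoDCs, lysozyme-expressing dendritic cells with the C5a receptor that were sorted from mouse Peyer's patches after CD11c bead enrichment. They were kept in medium with the growth factors CSF-1 and CSF-2. Per the labels, 3 samples had 0 nM C5a (untreated), 3 had 100 nM recombinant C5a for 3 h, and each was hybridised to 1 Cy3 array. Strain, age and the culture time of the untreated cells are not given in the sources used here. Nothing in the labels says that the samples came from separate animals or sorts, and p-values therefore reflect only how these samples spread, which may be technical. The series asks whether C5a, a fragment of complement component C5, triggers signalling in these cells, and the 8 genes bear on the lipid mediators such cells could make.

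Prostanoids and leukotrienes are made from arachidonic acid once phospholipases release it from membranes. The cyclooxygenases Ptgs1 and Ptgs2 turn it into prostaglandin H2, from which Ptges makes prostaglandin E2 and Tbxas1 makes thromboxane A2. In the other branch Alox5, helped by its membrane partner Alox5ap, makes leukotriene A4, which Lta4h turns into leukotriene B4 and Ltc4s into leukotriene C4. Ptgs2 is known as the cyclooxygenase that inflammatory stimuli induce, while Ptgs1 is made constitutively in many cells. Myeloid cells are a main source of leukotrienes.

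The arrays were dim and of uneven brightness. A probe is called well above background on an array where Feature Extraction, the scanner software, set that flag on at least 0.5 of its spots. Between 2727 and 6959 probes met this per array, with most on untreated 2 (6959) and C5a 2 (6651). Levels are log2 processed signal minus the 75th percentile of the same array, taken over the 2370 probes that passed on every one of the 6 arrays. That percentile ranged 4.23-fold before scaling, from a signal of 109 on untreated 3 to 460 on untreated 2. Differences are C5a minus untreated with n = 3 per group, from limma fitted over the 4488 genes with a probe that passed on 3 or more arrays. Of the 8 enzyme genes, 3 met this, Ptgs2, Ptges and Tbxas1. Lta4h and Ltc4s were well above background on 2 arrays each, and Ptgs1, Alox5 and Alox5ap on 0.

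**Figure D1:**
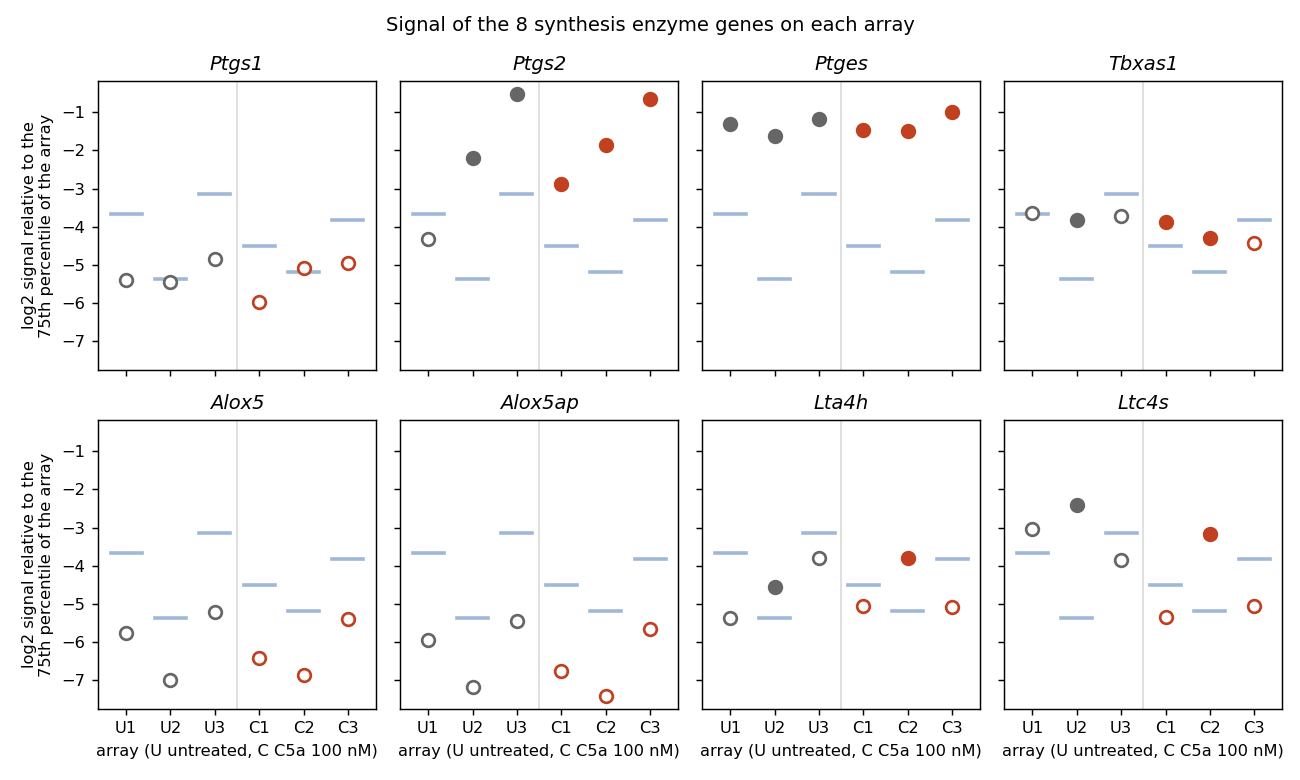
Level of each enzyme gene (log2 signal relative to the array's 75th percentile, brightest probe) on the 3 untreated (U, grey) and 3 C5a (C, red) arrays. Filled points are well above background, open points are not, and blue bars mark the lowest level of any probe well above background on that array. Ptges is filled on all 6 arrays and Ptgs2 on 5, while Ptgs1, Alox5 and Alox5ap are open on all 6.

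The stretches of 250 bases before the annotated start sites of the 3 tested genes are shown because these were the genes with enough signal to compare. They are taken from RefSeq (GRCm38.p6), whose promoter table matched 7 of the 8 genes, and run 5′ to 3′ on the strand of the gene. Ptgs2 lies at chr1:150099781-150100030 (+), Ptges at chr2:30903298-30903547 (-) and Tbxas1 at chr6:38918736-38918985 (+). Capitals mark matches on either strand to the motifs described next.
Ptgs2: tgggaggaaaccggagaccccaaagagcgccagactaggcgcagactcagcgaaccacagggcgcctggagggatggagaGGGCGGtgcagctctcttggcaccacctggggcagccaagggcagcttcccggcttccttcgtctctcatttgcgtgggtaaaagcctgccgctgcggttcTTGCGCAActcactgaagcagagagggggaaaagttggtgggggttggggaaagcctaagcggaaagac
Ptges: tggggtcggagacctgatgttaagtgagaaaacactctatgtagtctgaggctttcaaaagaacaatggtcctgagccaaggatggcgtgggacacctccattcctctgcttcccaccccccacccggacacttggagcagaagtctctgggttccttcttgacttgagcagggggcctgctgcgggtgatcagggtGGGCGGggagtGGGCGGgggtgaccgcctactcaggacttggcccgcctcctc
Tbxas1: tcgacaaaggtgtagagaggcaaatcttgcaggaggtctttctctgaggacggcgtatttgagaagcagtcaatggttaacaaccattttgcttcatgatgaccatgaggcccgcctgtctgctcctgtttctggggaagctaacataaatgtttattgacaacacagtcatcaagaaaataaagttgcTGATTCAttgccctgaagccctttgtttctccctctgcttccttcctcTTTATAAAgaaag

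Ptgs2 held TTGCGCAA, a palindrome that C/EBP factors can bind, 69 to 62 bases before the start, and this motif occurs in 0.164% of the 32851 stretches of the same length in the table. It also held 1 copy of the GC box GGGCGG, and Ptges held 2 (32.7% of stretches have at least 1). Tbxas1 held the AP-1 type motif TGANTCA (6.75% of stretches) and TATAAA, which was found on both strands with overlapping letters (12.4% of stretches). The motifs TGACGT of CREB and ATF factors (6.47% of stretches), CACGTG of the E-box type (6.02%) and the kappa B consensus (7.25%) had no match in these 3 stretches. A match describes the letters only. Bases outside these stretches were not searched, so sites further upstream or past the annotated start would be missed.

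The cyclooxygenase genes differed in whether they could be seen at all. Ptgs1 had processed signals of 3.90, 10.5 and 3.77 on untreated 1 to 3 and of 4.04, 11.1 and 4.999 on C5a 1 to 3. None carried the flag, so Ptgs1 has only an upper bound. The dimmest flagged probe of each array had a signal of 10.5 to 12.8, and on C5a 2, where it was 10.5, Ptgs1 lay above it. Ptgs2 was at levels of -4.33, -2.20 and -0.53 on untreated 1 to 3 and of -2.88, -1.87 and -0.65 on C5a 1 to 3. It was well above background on every array but untreated 1. The lowest value was untreated 1 and the highest untreated 3, so that the C5a values lay inside the untreated range. The untreated mean was -2.35 ± 1.90 (SD) and the C5a mean -1.80 ± 1.12, which differ by 0.55 (SE 0.98). That is 1.46-fold, with a 95% interval of 0.293 to 7.30-fold. Ptgs2 did not pass the test (limma, unadjusted p = 0.594, adjusted p = 0.9992). The difference was -0.44 (SE 0.79) without untreated 1, -0.03 (SE 1.02) without C5a 3 and -0.53 (SE 1.36) with the array's row on the slide as a covariate. In these bulk samples, fewer expressing cells and less RNA per cell cannot be told apart.

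Of Ptges and Tbxas1, the enzyme genes named above as using prostaglandin H2, Ptges was the one well above background on all 6 arrays. Its levels were -1.31, -1.63 and -1.18 on untreated 1 to 3 and -1.46, -1.50 and -1.003 on C5a 1 to 3. The groups overlapped. The difference was 0.054 (SE 0.28, 95% interval -0.61 to 0.72), and Ptges did not pass (limma, adjusted p = 0.9992). The interval allows up to 1.65-fold higher or a level of 0.655 of untreated. These values come from probe A_55_P1974193; the other 2 Ptges probes, A_51_P312327 and A_55_P1974189, were well above background on 0 of 6 arrays.

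Tbxas1, thromboxane synthase, was the enzyme gene whose groups did not overlap. Its levels were -3.65, -3.82 and -3.73 on untreated 1 to 3 and -3.88, -4.30 and -4.42 on C5a 1 to 3, so every C5a array was below every untreated array. The difference was -0.47 (SE 0.27, 95% interval -1.10 to 0.16), from -3.73 ± 0.086 (SD) in untreated to -4.20 ± 0.28 in C5a samples. It did not pass (limma, unadjusted p = 0.122, adjusted p = 0.9992). Over all 4488 genes tested, the groups did not overlap for 255 (5.68%). The signal was close to the detection limit, and 3 arrays passed it (untreated 2, C5a 1 and C5a 2), so the values of the other 3 have only an upper bound and the order of the groups is not settled. The 4.23-fold range in array brightness moves that limit, and its part in the Tbxas1 values was not tested.

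The genes of the leukotriene branch gave little or no signal. Alox5, 5-lipoxygenase, had processed signals of 2.92 to 3.63 over the untreated arrays and 2.95 to 3.63 over the C5a arrays. Alox5ap, which presents arachidonic acid to it, had 2.49 to 3.21 and 2.23 to 3.03. Neither was well above background on any array, so both have only an upper bound. The same held for 48672 of the 56605 probes, so this does not show that the transcripts were absent.

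Lta4h, which makes leukotriene B4, was seen on untreated 2 at a level of -4.55 and on C5a 2 at -3.79. Its processed signals there were 19.6 and 27.2, while untreated 1 and untreated 3 read 3.98 and 7.86, and C5a 1 and C5a 3 read 7.66 and 4.59. Ltc4s, leukotriene C4 synthase, showed the same pattern, at levels of -2.41 on untreated 2 and -3.17 on C5a 2. Its processed signals were 19.8, 86.7 and 7.52 on untreated 1 to 3 and 6.24, 42.1 and 4.62 on C5a 1 to 3. The signal on untreated 1 was above that of the dimmest detected probe of that array (12.8), but its spot did not carry the flag. Untreated 2 and C5a 2 were the 2 brightest arrays, and of 1255 probes well above background on exactly 2 arrays, 1039 (82.8%) were so on these 2. Both genes were thus seen only where the most probes were, in 1 sample of each group, and gave no measured level for the other 4.

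With every probe kept, limma called 47 of 46522 genes (0.101%), and none of the 8 enzyme genes was among them (adjusted p = 0.99 for each of the 5 left out by the filter). In that fit the SE was 0.768 for each of the 8, so the test did not use each gene's own spread. No difference between the groups is given for those 5, since most or all of their values were not well above background.

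Across the 3 tested enzyme genes, 0 passed at an adjusted p under 0.05 and 0 had an unadjusted p under 0.05 (limma). Over all genes tested, 0 passed (0%) and 105 had an unadjusted p under 0.05 (2.34%). Positive differences were seen for 2 of the 3 enzyme genes and for 2464 of the 4488 genes (54.9%). The median difference was 0.054 for the 3 and 0.037 for all genes. With the sample numbers of the labels as a block, the SE fell to 0.36 for Ptgs2, 0.21 for Ptges and 0.22 for Tbxas1, and none passed (limma, lowest adjusted p of the 3 0.926).

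**Figure D2:**
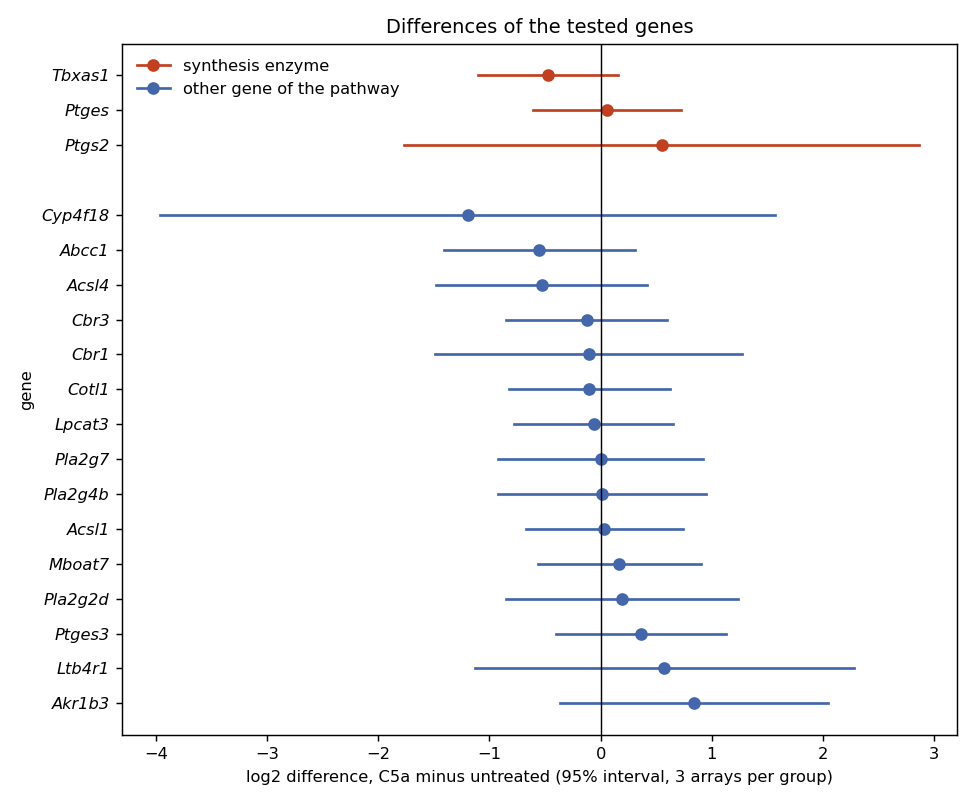
Log2 difference, C5a minus untreated, with its 95% interval from limma (3 arrays per group), for the 3 tested enzyme genes (red) and the 15 other tested genes of the pathway (blue). Each interval crosses 0, and those of Cyp4f18 and Ptgs2 are wide.

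Ptgs2 varied far more between sample numbers than between C5a and untreated cells. Averaged over both groups, its level was -3.61 in the samples numbered 1, -2.04 in those numbered 2 and -0.59 in those numbered 3. This range of 3.02 was at the 99.4th percentile of the 4488 genes, whose median range was 0.68. Numbers 3 and 1 differed by 3.02 (SE 0.45), in the same direction in both groups, and a test of the sample number gave an unadjusted p of 0.0037 and an adjusted p of 0.189 (limma F test, added after the values were seen). By that test 0 of 4488 genes passed (0%) and 801 had an unadjusted p under 0.05 (17.8%). The labels do not say what a sample number stands for. Array brightness followed the number in both groups. Before scaling, the 75th percentile of signal was 164, 460 and 109 on untreated 1 to 3 and 254, 377 and 154 on C5a 1 to 3. The part of brightness in the differences between numbers was not tested. Ptges and Tbxas1 ranged over 0.47 and 0.31 between numbers, and their unadjusted p-values by that limma F test were 0.285 and 0.49 (adjusted p = 0.526 and 0.673). For 3884 genes (86.5%) the range between numbers exceeded the difference between the groups, Ptgs2 and Ptges among them and Tbxas1 not. A range over 3 means of 2 arrays tends to exceed a difference of 2 means of 3 arrays even without any effect. This share therefore does not show that the sample number outweighed C5a.

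The genes whose profile over the 6 arrays was most like that of Ptgs2 were Il10, the gene of an immunoregulatory cytokine, and Ccl3, that of a CC chemokine. Likeness was the root mean square distance between values centred on each gene's mean, which was 0.248 for Il10 and 0.272 for Ccl3, against a median of 1.41 over 3275 named genes. On untreated 1 neither Ptgs2 nor Il10 was well above background, so their values there have only an upper bound and the distance takes them as measured. Il10 was at -5.16, -3.65 and -1.26 on untreated 1 to 3 and at -4.05, -3.02 and -1.92 on C5a 1 to 3. Ccl3 was at -1.03, 0.48 and 2.11 on untreated 1 to 3 and at 0.15, 0.62 and 2.04 on C5a 1 to 3. Both were thus lowest in the samples numbered 1 and highest in those numbered 3, in either group. Their choice by likeness to Ptgs2 largely fixes this order. Among marker genes, Ccr7, the chemokine receptor of migrating dendritic cells, moved likewise, at -2.22, -0.76 and 0.84 on untreated 1 to 3 and -1.82, -0.77 and 0.50 on C5a 1 to 3. The B cell marker Cd79b had the same order, at -4.71, -3.15 and -2.94 on untreated 1 to 3 and -5.42, -3.70 and -3.04 on C5a 1 to 3, with untreated 2, C5a 2 and C5a 3 well above background. Ccr7 and Dpp4 were the 2 of 8 conventional dendritic cell markers well above background on any array. Flt3, Zbtb46, Xcr1, Clec9a, Itgae and Cd209a were so on none, and the summed level of the 8 was 0.369 to 2.00 times the array percentile in untreated and 0.392 to 1.57 times in C5a samples, with Ccr7 making up most of it on every array. Dpp4 was highest in the samples numbered 2, at -5.85, -4.05 and -5.34 on untreated 1 to 3 and -6.40, -4.25 and -5.57 on C5a 1 to 3. Of the LysoDC markers detected on all 6 arrays, Lyz1, Lyz2, Csf1r and Sirpa were lowest in the samples numbered 3 in both groups. Lyz1 was at 2.81, 2.82 and 1.60 on untreated 1 to 3 and 2.57, 2.82 and 1.72 on C5a 1 to 3. H2-Ab1 was highest in the samples numbered 3 in both groups. Itgax, Itgam, Ctss and Cd74 were neither lowest nor highest there in both groups. The part of other cells in the Ptgs2 values was not tested.

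**Figure D3:**
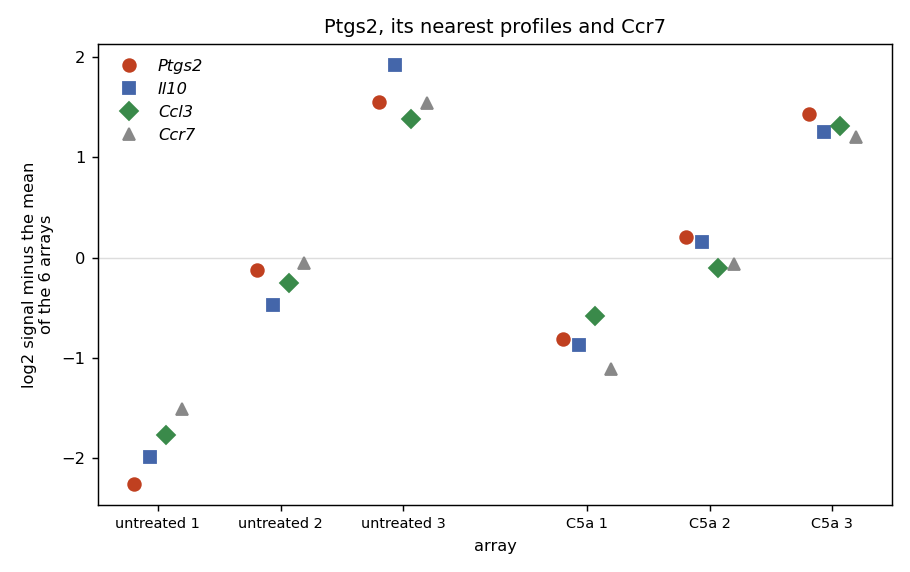
Log2 signal of Ptgs2, of the 2 genes with the nearest profile (Il10 and Ccl3) and of Ccr7 on each array, each minus its mean over the 6 arrays. In both groups the 4 genes are lowest in the sample numbered 1 and highest in the sample numbered 3. Il10 and Ccl3 were chosen by likeness to Ptgs2, and Ccr7 was picked from the markers for the same order.

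For Ptges, the nearest profiles were those of Nus1 and Eif3d, with distances of 0.052 and 0.073 against a median of 0.512. For Tbxas1 they were Srsf3 and Cactin, at 0.099 and 0.118 against a median of 0.527. Tbxas1 was well above background on 3 arrays, and Srsf3 and Cactin on 4 each. On untreated 3 and C5a 3 none of these genes was, and the distances take such values as measured. Ptges itself ranged over 0.45 among the untreated and 0.50 among the C5a arrays. Srsf3 and Cactin differed between the groups by -0.58 (SE 0.27) and -0.47 (SE 0.26), values that their choice by likeness to Tbxas1 fixes.

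Around the 8 enzymes, 74 of 75 other listed genes of the pathway were on the array, and 22 were well above background on at least 1 array. Of these, 15 were tested, with 7 positive and 8 negative differences, and 0 were called in either direction by limma (adjusted p = 0.9992 for each; 0 had an unadjusted p under 0.05). The groups overlapped for all 15. Tested genes were well above background on 3 or more arrays, and their values on any remaining arrays have only an upper bound.

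Genes that release arachidonic acid or put it back were the longest list, with 7 of 25 tested. Pla2g4a, the cytosolic phospholipase A2 that starts eicosanoid synthesis in most cells, was well above background on untreated 2 alone. Its relative Pla2g4b differed by 0.011 (SE 0.40), the secreted Pla2g2d by 0.19 (SE 0.44) and Pla2g7, which degrades platelet-activating factor, by -0.00075 (SE 0.39). The dimmer kept probes of Pla2g7 differed by -0.87 (SE 0.72) and -0.39 (SE 0.48), and the other Pla2g2d probe by -0.015 (SE 0.31). Among the enzymes that return arachidonic acid to lipids, Acsl1 differed by 0.034 (SE 0.30), Lpcat3 by -0.063 (SE 0.30) and Mboat7 by 0.17 (SE 0.31). Acsl4, the acyl-CoA synthetase that prefers arachidonic acid, differed by -0.53 (SE 0.40). Its other kept probes differed by 0.60 (SE 0.43) and -0.15 (SE 0.33), so its direction is not settled. Daglb was well above background on untreated 2 alone, and Acsl5 and Lpcat2 on untreated 2 and C5a 2.

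Of the other prostanoid synthases, 3 of 8 were tested. Ptges3, a cochaperone also described as cytosolic prostaglandin E synthase, was well above background on all 6 arrays, with levels of -1.44, -0.88 and -0.44 on untreated 1 to 3 and of -0.50, -0.70 and -0.48 on C5a 1 to 3. It differed by 0.36 (SE 0.32). Akr1b3, an aldose reductase with prostaglandin F synthase activity, had the largest positive difference of the pathway, 0.84 (SE 0.51, 95% interval -0.37 to 2.05; limma, unadjusted p = 0.145, adjusted p = 0.9992). All 3 C5a arrays but only untreated 2 were well above background, with untreated levels of -4.47, -2.99 and -4.96 and C5a levels of -3.50, -3.40 and -3.01. The value of untreated 2 was above all 3 C5a values. Akr1b3 thus met the filter largely through the C5a arrays, and its values on untreated 1 and untreated 3 have only an upper bound. Without untreated 2 the difference was 1.41 (limma, unadjusted p = 0.0058, adjusted p = 0.662), and without untreated 3 it was 0.43. The fit without untreated 2 set detected C5a values against undetected untreated values alone, so its p-value does not compare measured levels. Cbr1, a carbonyl reductase of prostaglandins, differed by -0.11 (SE 0.59), and Prxl2b was seen on untreated 2 and C5a 2 alone.

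Of 15 other lipoxygenase and leukotriene genes 14 were well above background on no array, among them Alox12 and Alox15. Over the whole array this held for 48672 of 56605 probes. The exception was Cotl1, an actin-binding protein known to bind 5-lipoxygenase, which was detected on all 6 arrays and differed by -0.10 (SE 0.31). Of the genes that break down or export eicosanoids, 3 of 11 were tested. Abcc1, which exports leukotriene C4, differed by -0.55 (SE 0.36), and Cbr3 by -0.13 (SE 0.31). Cyp4f18, which oxidises leukotriene B4, differed by -1.20 (SE 1.17), with C5a 3 at -6.05 and the remaining 5 samples from -2.75 to -1.26. On C5a 3 it was not well above background, so that value has only an upper bound. Without C5a 3 the Cyp4f18 difference was 0.27.

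Of 16 listed eicosanoid receptors 15 were on the array and 3 were seen. Ltb4r1, the high-affinity receptor for leukotriene B4, was the one tested, at -3.95, -4.46 and -5.16 on untreated 1 to 3 and -2.71, -3.57 and -5.56 on C5a 1 to 3. Only untreated 2, C5a 1 and C5a 2 were well above background, so the remaining values have only an upper bound. Ltb4r1 differed by 0.57 (SE 0.72), and by -0.044 without C5a 1. Ptger4, a receptor for prostaglandin E2, and Ptgir, the prostacyclin receptor, were well above background on untreated 2 and C5a 2 alone, the arrays on which Lta4h and Ltc4s were seen.

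The labelled cell type could be checked against its markers. Of 14 mononuclear phagocyte and LysoDC markers 11 were well above background on at least 1 array and 9 on all 6, including Lyz1, Lyz2, Itgax and Csf1r, while Cx3cr1, Mertk and Cd4 were on none. Of markers of other cells known for these enzymes, 1 of 12 mast cell and basophil genes (Hdc), 1 of 7 eosinophil genes (Ear2), 1 of 8 platelet genes (Pf4), 1 of 9 neutrophil genes (Csf3r) and 0 of 6 tuft cell genes were well above background on any array. Cpa3, Ms4a2, Prg2, Epx, Ppbp and S100a8 were not. For T cells and epithelial cells the counts were 0 of 8 each, for B cells 2 of 7 and for stromal cells 1 of 7 (Pdpn).

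**Figure D4:**
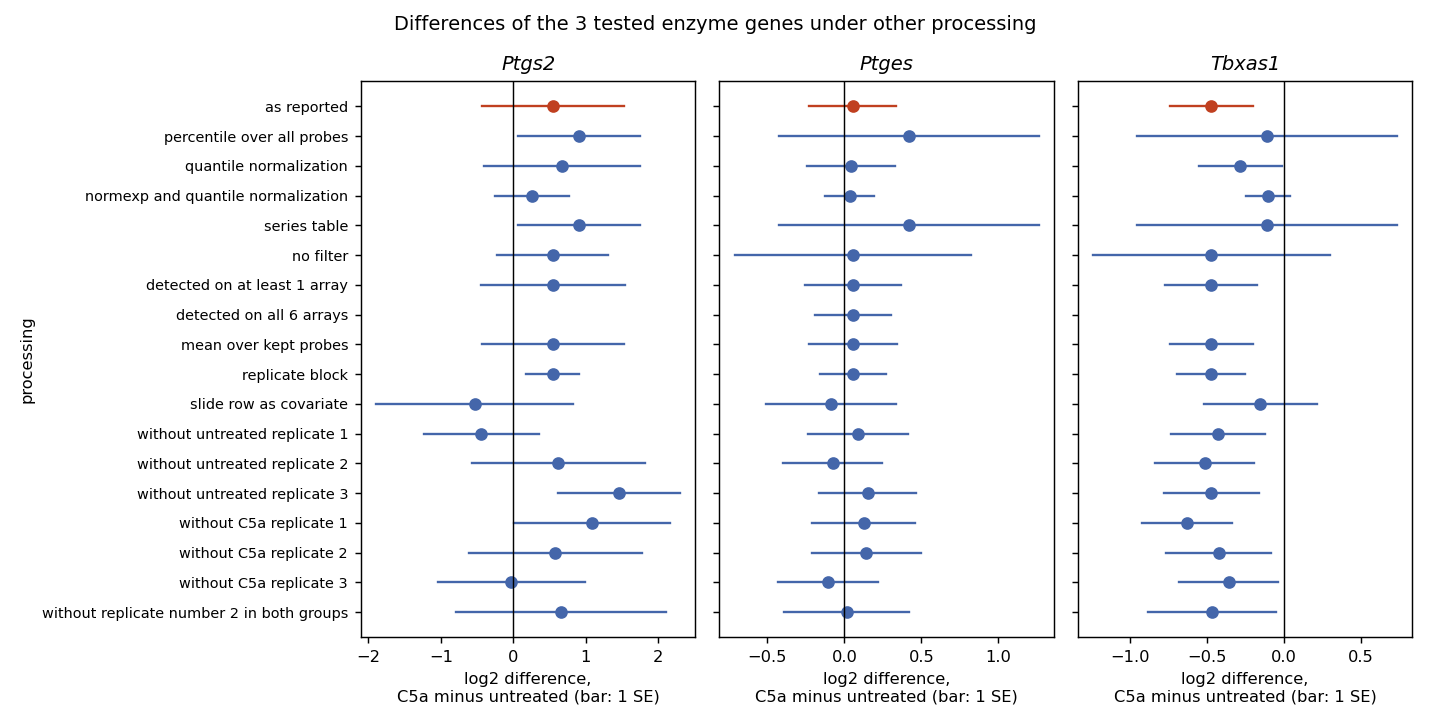
Log2 difference, C5a minus untreated, of the 3 tested enzyme genes as reported (red) and under each other way of processing (blue), with bars of 1 SE; a gap means that the gene was not kept. Tbxas1 stays below 0 in all 16 alternatives that gave a value, while Ptgs2 and Ptges lie on both sides of 0. The Tbxas1 groups do not overlap, so leaving samples out could not turn its sign.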

How the data were processed

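Total RNA of 6 samples was labelled with Cy3 and hybridised to 1-colour Agilent arrays (design 074809), read with Feature Extraction 10.10.1.1 per the file headers. Each spot's deposited intensity had its background subtracted within the array and no scaling between arrays, per the file headers, and came with flags set to 0 or 1. The deposited series table holds log2 values. Centred per probe, 100% of them lay within 0.02 of log2 processed signal less the array's 75th percentile over all probes, so its scale and direction are known and the baseline of each probe is not. Its column medians ran from -0.08 to 0.22, and it was used as an alternative.

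Control spots were dropped, as were spots marked as outliers where the probe had another, and no saturated spot was found. Accessions were named without their versions through RefSeq's table (GRCm38.p6), which named 32994 of 56605 probes. The array design cites another build, so the coordinates given are those of the RefSeq start-site stretches alone. A gene's brightest kept probe stood for it, 3276 of the 4488 tested genes having a symbol. The comparison used limma 3.58.1 in R 4.3.3 (lmFit, eBayes), tested on simulated data first, with p-values adjusted by Benjamini-Hochberg over the 4488 genes and called under 0.05. All arrays lay on 1 slide and were read in 1 scan, so neither could be tested as a batch. The number of arrays limits the precision. Same-numbered samples deviated together (correlations of 0.21, 0.27 and 0.38 across genes), so the numbers were taken as pairs in an alternative fit with a replicate block. Named genes are all 8 enzyme genes, every listed pathway gene that was tested or seen on at least 1 array, and the 2 nearest profiles of each tested enzyme gene. The enzyme genes and lists were chosen with earlier results of these data known.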

Additional observations from a re-analysis of the deposited data

How the results depend on the processing

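None of the 3 tested enzyme genes and none of the 15 pathway genes passed limma's test (adjusted p under 0.05) in any of the 17 alternatives, of which 1, without replicate number 2 in both groups, was chosen after seeing the data. The number of genes called was 0 in all but the fit without a filter, where it was 47. Each named gene had the same SE without a filter (0.7676), with the percentile over all probes (0.8438) and with the series table (0.8445). Those fits therefore did not use each gene's own spread. With the replicate block the differences stayed at 0.55 (SE 0.36), 0.054 and -0.47 for Ptgs2, Ptges and Tbxas1, and it changed no call. The block raised the count of genes at an unadjusted p under 0.05 from 105 to 190. Taking the percentile over all probes moved the median of all genes from 0.037 to 0.40, as did the series table, so signs there are relative to that shift. Both gave 12 positive and 3 negative differences among the pathway genes in place of 7 and 8. The positive count was 2 over probes detected on all 6 arrays, and the negative count 64 without a filter and 13 with detection on at least 1 array. Over all genes, 1138 of 2182 were positive over probes detected on all 6 arrays. Negative were 39871 of 46522 without a filter and 3560 of 6992 with detection on at least 1 array. Over the fits without 1 sample these counts ran from 5 to 11 positive and from 4 to 10 negative.

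Tbxas1 kept its sign in all 16 alternatives that gave a value, from -0.63 to -0.10. Since its groups did not overlap, the fits that left samples out could not turn that sign. The fits that changed only the filter, the averaging of probes or the block returned the same -0.47. Most of these agreements were thus fixed in advance. Ptgs2 ran from -0.44 to 1.46 and Ptges from -0.11 to 0.15 when 1 sample was left out. With the slide row as a covariate they were at -0.53 and -0.087. In that fit C5a 1 is the sole C5a array in the row of the 3 untreated ones. Of the 15 pathway genes 4 kept their sign in every alternative, and without 1 sample Acsl4 ran from -0.94 to -0.29, Ptges3 from 0.10 to 0.60, Akr1b3 from 0.43 to 1.41 and Abcc1 from -0.86 to -0.28. With the percentile over all probes the sign turned for Pla2g7 0.36, Lpcat3 0.30, Cbr1 0.25, Cotl1 0.26 and Cbr3 0.23. With the series table the sign turned for Pla2g7 0.36, Lpcat3 0.30, Cbr1 0.25, Cotl1 0.26 and Cbr3 0.24. With the slide row the sign turned for Pla2g4b -0.12, Pla2g2d -0.14, Pla2g7 0.094, Lpcat3 0.021 and Cyp4f18 0.0044. Without number 2 in both groups the sign turned for Pla2g4b -0.18, Pla2g7 0.14 and Cbr3 0.0049. With normexp the sign turned for Acsl1 -0.068. With quantile normalization the sign turned for Pla2g7 0.024. Over probes detected on all 6 arrays the sign turned for Pla2g2d -0.015. Without 1 sample, Pla2g4b ran from -0.28 to 0.42, Pla2g2d ran from -0.26 to 0.52, Pla2g7 ran from -0.19 to 0.33, Acsl1 ran from -0.14 to 0.24, Lpcat3 ran from -0.27 to 0.13, Mboat7 ran from -0.061 to 0.39, Cbr1 ran from -0.60 to 0.44, Cotl1 ran from -0.29 to 0.039, Cbr3 ran from -0.37 to 0.049, Cyp4f18 ran from -2.06 to 0.27 and Ltb4r1 ran from -0.044 to 1.38. The cause of these turns was not tested.

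Depth of signal limits what can be said: 5 of the 8 enzyme genes have no measured level on 4 or more arrays.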
